A study of Mus musculus with 16 samples.

Results

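Ptgs2, the inducible cyclooxygenase, was among the most abundant mRNAs of mouse KM lung tumour cells, and it is described here with 9 other genes that make, move, sense or break down prostaglandin E2. The 10 genes were listed by symbol for these roles, with the high Ptgs2 level already known, so that level is given as a description and was not tested. All 10 were found among the 20622 genes in the files. Of these, 9 passed the filter on low counts in each comparison, and Hpgd did not.

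KM cells were grown from lung tumours of 1 male KM mouse at clinical endpoint, which carried Rosa26 LSL-MYC/LSL-MYC alleles switched on by Ad5-SPC-CRE, an adenoviral Cre driven by the promoter of the alveolar type II gene Sftpc. KM_NTC cells carried a non-targeting CRISPR guide, and KM_4A2cr cells were a pool of 4 clones without eIF4A2, an RNA helicase of translation initiation and mRNA repression, made with a guide against Eif4a2. Both lines therefore share the engineered alleles, the lentiviral vector and the selection in puromycin, and neither was treated. Ribosome-protected fragments (RPFs, the mRNA pieces covered by ribosomes) and cytoplasmic total RNA were taken from the same lysate in 4 independent experiments per line, which gave 16 libraries. The comparison asks how mRNA levels and ribosome occupancy differed between these lines. The paper describes clonal selection for KM_4A2cr only, so loss of eIF4A2 and that selection cannot be told apart here.

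Prostaglandin E2 is made in 3 steps. Phospholipase A2 frees arachidonate from membranes, a cyclooxygenase turns it into prostaglandin H2, and a prostaglandin E synthase makes prostaglandin E2. The product leaves cells through the exporter Abcc4, signals through receptors such as Ptger4, is taken up by the transporter Slco2a1 and is inactivated by Hpgd. Ptgs2 is an early response gene whose mRNA is short-lived in many cells, and it is known for its induction by growth factors and inflammation in epithelial cells.

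RPF libraries held between 5703271 and 9621848 counts in KM_NTC and between 4512403 and 8515151 in KM_4A2cr. For total RNA the range was 5580726 to 9312622 counts in KM_NTC and 5350919 to 7213596 in KM_4A2cr. The targeted gene Eif4a2 stood at 97.7, 122, 99.8 and 389 CPM (counts scaled to library size, with TMM factors) in KM_NTC RPFs and at 51.0, 88.4, 74.8 and 346 CPM in KM_4A2cr RPFs. It was lower in 4 of 4 pairs (log2 fold change -0.49, SE 0.15, adjusted p = 0.0941 by edgeR). In total RNA the value was -0.18 (SE 0.13, adjusted p = 0.504 by edgeR). In both lines replicate 4 had by far the highest Eif4a2 level. The epithelial genes Epcam, Cdh1, Krt8, Krt18 and Krt19 were each above 232 TPM (a level per transcript length and library size) in every total RNA library. The alveolar type II genes Sftpc and Sftpb were listed at 0 in all 8, and Nkx2-1 reached 0.12 TPM. The paper lists surfactant protein C, the Sftpc product, among the markers used to assess cell identity, and does not state how it was measured. Of the other alveolar type II genes, Abca3 ran from 27.6 to 47.6 TPM, Lamp3 reached 1.63 TPM, and Sftpa1, Sftpd and Napsa stayed below 1 TPM. Among 9 fibroblast genes, 8 stayed below 1 TPM, and the sum of all 9 was at most 3.14 TPM in KM_NTC and 2.85 TPM in KM_4A2cr. Among 9 leukocyte genes 7 stayed below 1 TPM, with Adgre1, Lyz2 and Cd3e listed at 0, while Cd68 reached 220 TPM. The summed leukocyte genes ran from 61.2 to 233 TPM in KM_NTC and from 62.1 to 160 TPM in KM_4A2cr, and their part in the results below was not tested.

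Ptgs2 (ENSMUSG00000032487.9) lies on chromosome 1. Its window in the RefSeq promoter table (GRCm38.p6, from 250 bases before to 50 after the annotated start, plus strand) held short motifs that are textbook elements of inducible promoters. They are shown because Ptgs2 is the abundant member, and they were chosen after the sequence had been seen. Capitals mark the motif.
Ptgs2 C/EBP type motif, chr1:150099955-150099976: gcggttcTTGCGCAActcactg
Ptgs2 cAMP response element core and E-box, chr1:150100036-150100059: caccactACGTCACGTGgagtccg
The C/EBP type motif TTGCGCAA reads the same on both strands and begins 69 bases before the annotated start. The cAMP response element core, searched as TGACGT or ACGTCA, begins at base 13 after the start and shares its last 2 bases with the E-box CACGTG. Positions are counted from the start that RefSeq annotates. A TTAAAA stretch, found on either strand in 19.2% of all windows, begins at base 40 after that start, and the start used in these cells was not measured. TTGCGCAA was found in 0.183% of 32817 RefSeq promoter windows of this length, the TGACGT core in 7.51% and CACGTG in 7.15%. All 10 members had a window, 12 in all because Pla2g4a and Abcc4 have a pair each. Among these 12, the C/EBP type motif and the TGACGT core were found in the Ptgs2 window alone, and CACGTG was also found in those of Ptges2 and Abcc4. A TATAAA box, found in 13.6% of all windows, was present in those of Slco2a1, Hpgd and Pla2g4a, the last on the other strand. These matches describe letters in a window, and binding was not measured.

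Per length, Ptgs2 was the highest of the 10 genes in every total RNA library. Its level was 1848, 2682, 4102 and 2207 TPM in KM_NTC replicates 1 to 4 and 1335, 2990, 4545 and 804 TPM in KM_4A2cr. These levels placed it between rank 27 and rank 158 of all genes by TPM, with a median rank of 68.5. Ptgs2 took between 0.468% and 1.02% of all RPF counts in KM_NTC and between 0.318% and 0.946% in KM_4A2cr. In total RNA its share ran from 0.479% to 1.04% in KM_NTC and from 0.261% to 1.13% in KM_4A2cr. The 95% Wilson intervals of these shares are narrow, for example 0.315% to 0.322% for the lowest RPF share, and cover counting error only. By counts alone Ptgs2 was the top gene of total RNA in replicate 3 of both lines and ranked between 2 and 40 in the other 6 libraries. In RPFs it ranked between 2 and 30, and Clu was the top gene in 7 of 8 libraries.

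The other genes followed Ptgs2 at a distance. The median level over 8 libraries was 367 TPM for Ptges3, 214 TPM for Abcc4, 135 TPM for Ptges and 61.1 TPM for Pla2g4a. It was 9.80 TPM for the constitutive cyclooxygenase Ptgs1, 5.61 TPM for Slco2a1, 2.52 TPM for Ptges2, 2.00 TPM for Ptger4 and 0 for Hpgd. The Ptgs2 range did not overlap that of Ptges3, nor did the range of Pla2g4a overlap that of Ptgs1. Neighbours from Ptges3 to Pla2g4a and from Ptgs1 to Ptger4 had overlapping ranges, and Ptges3 exceeded Abcc4 in 7 of 8 libraries. Within a library the Ptgs2 level was between 94.5 and 743 times that of Ptgs1, with a median of 233. Ptges exceeded Ptges2 by between 18.8 and 117 times. Coding lengths were not used here, so RPF levels are compared only within a gene.

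**Figure D1:**
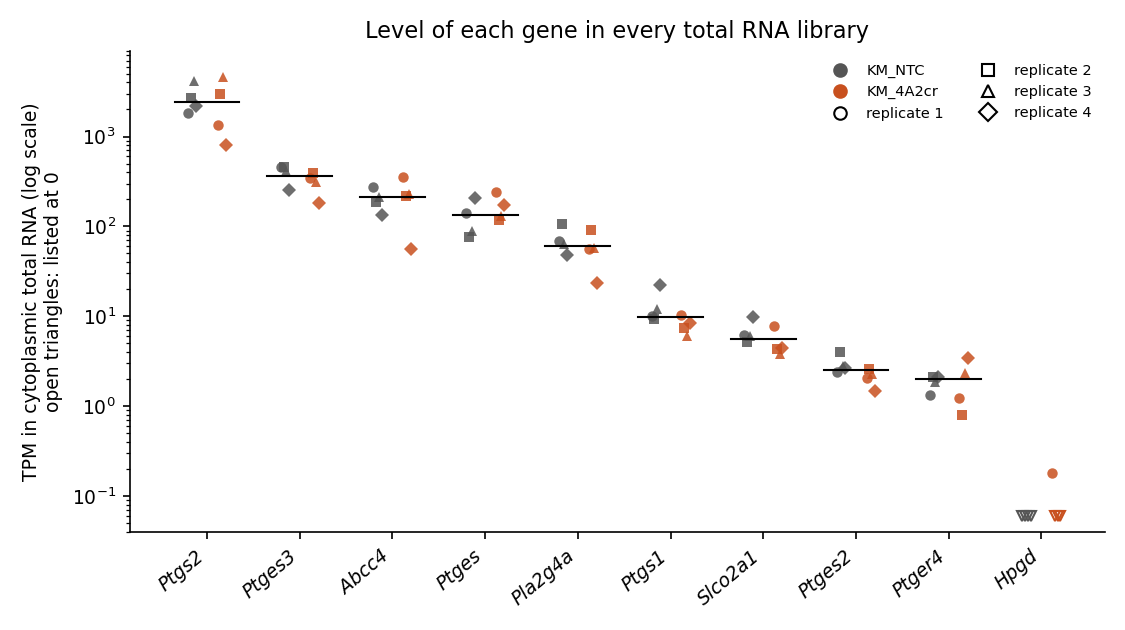
Each point is 1 total RNA library, with the level in TPM on a log axis for the 10 genes, ordered by their median (black line). Ptgs2 lies between 804 and 4545 TPM, above every other gene in all 8 libraries, and open triangles mark the 7 libraries in which Hpgd is listed at 0.

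Of the 9 tested members, 2 passed the threshold in RPFs (adjusted p below 0.1 by edgeR with replicate as a block), 1 higher and 1 lower in KM_4A2cr. In the same comparison 10.3% of 10291 genes passed, 6.60% higher and 3.72% lower. In total RNA 1 of 9 members passed, on the higher side, against 6.13% of 10880 genes, 4.35% higher and 1.78% lower. Members had a median log2 fold change of -0.18 in RPFs, where the median over all genes was -0.01. In total RNA these medians were -0.23 and 0.01. The CPM values of the lines overlapped for all 9 in both kinds of library, while 2.13% of all genes in RPFs and 1.97% in total RNA did not overlap. With 9 genes, such counts are no result about the members as a set. No member passed without the replicate block, where 0 genes of the whole table passed in RPFs or in total RNA. In that edgeR fit 1 member in RPFs and 0 in total RNA had an unadjusted p under 0.05. Over all genes, 365 of 10291 and 362 of 10880 did.

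**Figure D2:**
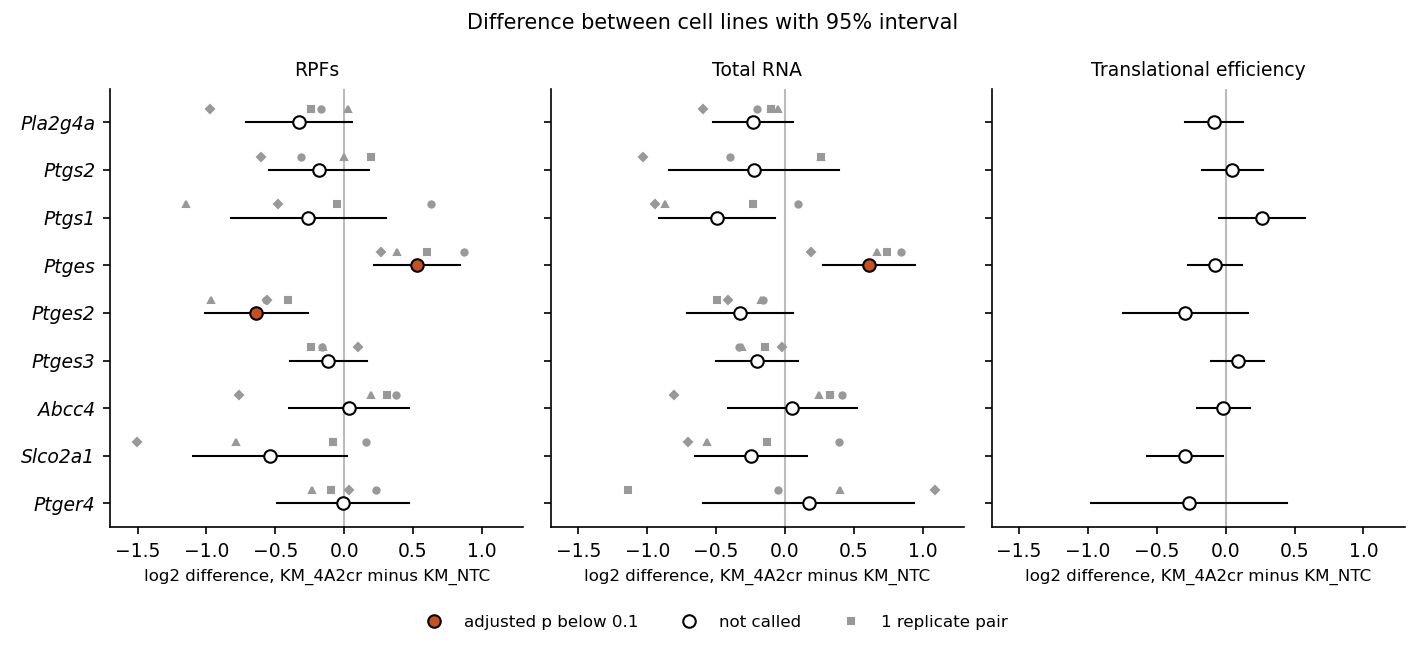
The x axis gives the log2 difference KM_4A2cr minus KM_NTC, with circles for the fitted value, lines for its 95% interval and small grey symbols for the 4 replicate pairs (circle, square, triangle and diamond for replicates 1 to 4). Filled circles, adjusted p below 0.1, are seen for Ptges in RPFs and total RNA and for Ptges2 in RPFs.

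Arachidonate release comes first in the pathway. Pla2g4a (ENSMUSG00000056220.15), cytosolic phospholipase A2 alpha, stood at 124, 169, 109 and 121 CPM in KM_NTC RPFs and at 110, 143, 111 and 61.7 CPM in KM_4A2cr. The groups overlapped, and the low KM_4A2cr value is that of replicate 4. Its RPF log2 fold change was -0.33 (SE 0.17, 95% interval -0.71 to 0.06, adjusted p = 0.286 by edgeR), and it was -0.13 without replicate 4 (adjusted p = 0.377 by edgeR). Total RNA was 104, 135, 99.0 and 88.7 CPM in KM_NTC and 89.9, 126, 95.8 and 58.5 CPM in KM_4A2cr. Each KM_4A2cr library lay below its partner, by a log2 difference between 0.05 and 0.60 in size, and the test did not pass (-0.23, SE 0.13, adjusted p = 0.398 by edgeR). Without replicate 4 this value too was -0.13. In the RefSeq annotation Pla2g4a is the nearest protein-coding neighbour of Ptgs2, with a pseudogene and the lncRNA Ptgs2os between them. Both of its listed isoforms were used. The longer one held 55.7% ± 0.65 of the gene's TPM in KM_NTC and 56.6% ± 1.89 in KM_4A2cr (SD, n = 4).

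Ptgs2 did not differ between the lines beyond the spread of the pairs. RPFs were 4076, 5319, 10122 and 9042 CPM in KM_NTC and 3273, 6099, 10127 and 5936 CPM in KM_4A2cr. Replicate 3 was the highest in both lines and replicate 1 the lowest, and the groups overlapped over nearly their whole range. The log2 difference by pair was -0.32, 0.20, 0.00 and -0.61. The fitted value was -0.18 (SE 0.16, 95% interval -0.54 to 0.18, adjusted p = 0.536 by edgeR), and it was -0.039 without replicate 4. Total RNA was 4482, 5506, 10094 and 6575 CPM in KM_NTC and 3391, 6587, 12073 and 3220 CPM in KM_4A2cr. The pairs differed by -0.40, 0.26, 0.26 and -1.03, so the experiments did not share a direction. The fitted value was -0.23 (SE 0.28, 95% interval -0.84 to 0.39, adjusted p = 0.720 by edgeR), and it was 0.03 without replicate 4.

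Ptgs2 varied more between experiments than between the lines. Replicate number took 90.1% of the variance of log2 CPM in RPFs and cell line 2.57%, against medians of 75.3% and 7.07% over all tested genes. In total RNA the shares were 79.4% and 3.19%, against medians of 74.7% and 5.71%. The highest KM_NTC library was 2.48 times the lowest in RPFs and 2.25 times in total RNA. In KM_4A2cr the corresponding ratios were 3.09 and 3.75.

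**Figure D3:**
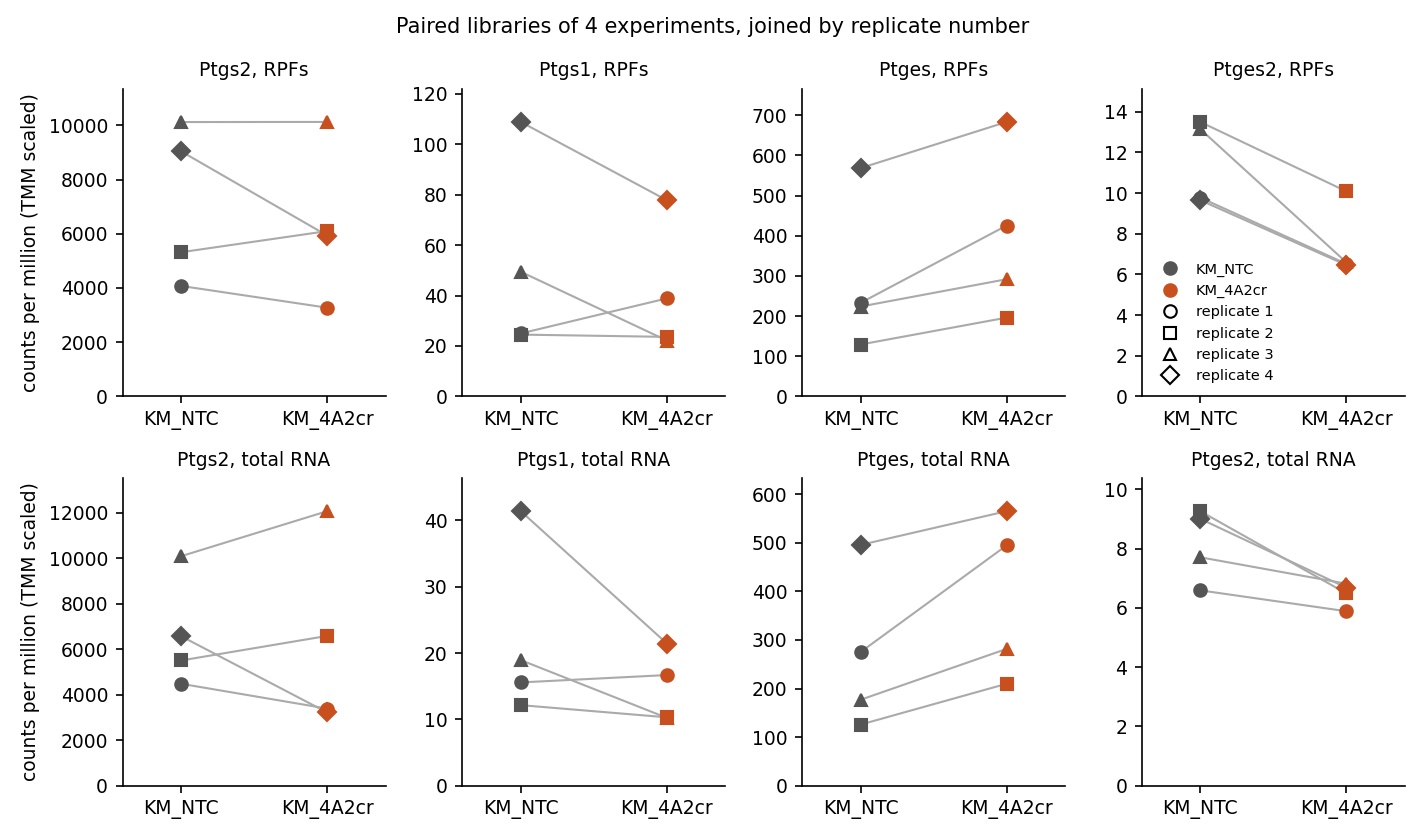
Each panel plots CPM on an axis from 0 for 1 gene, in RPFs above and total RNA below, with grey lines joining the KM_NTC and KM_4A2cr libraries of 1 replicate number. Ptges rises and Ptges2 falls along all 4 lines in both kinds of library, while lines of Ptgs2 and Ptgs1 run both ways.

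Ptgs1 (ENSMUSG00000047250.14, chromosome 2), the constitutive cyclooxygenase, was scarce beside Ptgs2. RPFs were 25.0, 24.5, 49.4 and 109 CPM in KM_NTC and 38.9, 23.6, 22.2 and 77.8 CPM in KM_4A2cr. Replicate 4 was the highest in both lines, and pair 1 ran upward while the other 3 ran downward. The RPF log2 fold change was -0.26 (SE 0.25, 95% interval -0.82 to 0.30, adjusted p = 0.571 by edgeR), with -0.17 without replicate 4 and 0.059 without replicate 3. Total RNA was 15.6, 12.1, 18.9 and 41.4 CPM in KM_NTC and 16.7, 10.3, 10.2 and 21.4 CPM in KM_4A2cr. It was lower in 3 of 4 pairs, with a fitted value of -0.49 (SE 0.19, 95% interval -0.92 to -0.07), and did not pass over all genes (adjusted p = 0.202 by edgeR). Without replicate 4 it was -0.33. It passed with no filter on low counts (adjusted p = 0.0340) and with scaling by library size only (adjusted p = 0.0920), both by edgeR.

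The 3 prostaglandin E synthases did not move together. Ptges (ENSMUSG00000050737.14, chromosome 2), the inducible microsomal enzyme that works with Ptgs2, was higher in KM_4A2cr in RPFs and total RNA. Ptges2 (ENSMUSG00000026820.6, chromosome 2), a Golgi and cytosolic enzyme, was lower in RPFs. Ptges3 (ENSMUSG00000071072.13, chromosome 10), the cytosolic enzyme also known as the Hsp90 co-chaperone p23, passed in neither.

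Ptges RPFs were 233, 129, 224 and 568 CPM in KM_NTC and 425, 196, 292 and 683 CPM in KM_4A2cr. The groups overlapped, since replicate 4 of KM_NTC lay above 3 KM_4A2cr libraries, yet KM_4A2cr was higher in 4 of 4 pairs, by 0.87, 0.60, 0.38 and 0.27 on the log2 scale. The fitted RPF log2 fold change was 0.53 (SE 0.14, 95% interval 0.22 to 0.84, adjusted p = 0.0669 by edgeR), a fold of 1.44. Ptges total RNA was 275, 126, 177 and 496 CPM in KM_NTC and 495, 210, 282 and 565 CPM in KM_4A2cr. Here too each KM_4A2cr library exceeded its partner, and the log2 fold change was 0.61 (SE 0.15, 95% interval 0.28 to 0.95, adjusted p = 0.0593 by edgeR). Both calls were lost by edgeR without the replicate block (adjusted p = 0.998 and 0.999), and without replicate 1, 2 or 3. The RPF fold change was then 0.42, 0.51 and 0.61 (adjusted p = 0.223, 0.349 and 0.275), and that of total RNA 0.53, 0.57 and 0.59 (adjusted p = 0.225, 0.369 and 0.422). With scaling by library size only the total RNA value was 0.45 (adjusted p = 0.115 by edgeR). Without replicate 4 both passed, at 0.62 (adjusted p = 0.00161) and 0.75 (adjusted p = 5.93e-06), again by edgeR. There 33.4% of all genes passed in RPFs and 29.8% in total RNA.

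Ptges2 was a scarce transcript. Its RPFs were 9.78, 13.5, 13.1 and 9.65 CPM in KM_NTC and 6.52, 10.1, 6.59 and 6.46 CPM in KM_4A2cr, from 386 and 207 counts in all. Only replicate 2 of KM_4A2cr reached the KM_NTC range, and KM_4A2cr was lower in 4 of 4 pairs. The RPF log2 fold change was -0.64 (SE 0.17, 95% interval -1.01 to -0.26, adjusted p = 0.0669 by edgeR), a fold of 0.642. Cell line took 62.2% of its RPF variance. Total RNA was 6.59, 9.26, 7.71 and 9.01 CPM in KM_NTC and 5.89, 6.49, 6.82 and 6.68 CPM in KM_4A2cr. The direction held in 4 of 4 pairs and the test did not pass (-0.33, SE 0.17, 95% interval -0.71 to 0.06, adjusted p = 0.356 by edgeR). The RPF call was lost with DESeq2 (adjusted p = 0.136) and, by edgeR, without the replicate block (adjusted p = 0.998) and without replicate 1, 2 or 3 (log2 fold changes -0.66, -0.73 and -0.49, adjusted p = 0.177, 0.232 and 0.340).

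Ptges3 RPFs kept within 148 to 172 CPM in KM_NTC and 138 to 159 CPM in KM_4A2cr. Its log2 fold change was -0.11 (SE 0.12, 95% interval -0.39 to 0.16, adjusted p = 0.617 by edgeR) in RPFs, where it was -0.18 without replicate 4, and -0.20 (SE 0.13, adjusted p = 0.472 by edgeR) in total RNA. The total RNA value passed without replicate 4, at -0.27 (adjusted p = 0.0349 by edgeR), where 29.8% of all genes passed. The Ptges3 isoforms held nearly equal parts of the gene's TPM, with between 49.4% and 51.9% in the isoform used for RPFs.

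Ptgs1, Ptges and Ptges2 all lie on chromosome 2, whose genes stood lower in KM_4A2cr as a whole. The median log2 fold change of its 833 genes tested in RPFs was -0.21, with 22 higher and 85 lower, and that of 900 genes in total RNA was -0.17. The Ptges2 and Ptgs1 values have the sign of this shift and the Ptges values the opposite sign. The part of the shift in these values was not tested.

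Among the transporters, Abcc4 (ENSMUSG00000032849.15, chromosome 14), an exporter of prostaglandins and cyclic nucleotides, was the more abundant. Its RPFs were 1254, 721, 985 and 1173 CPM in KM_NTC and 1632, 893, 1129 and 691 CPM in KM_4A2cr. KM_4A2cr was higher in pairs 1 to 3 and lower in pair 4, by 0.38, 0.31, 0.20 and -0.76 on the log2 scale. Total RNA showed the same pattern, with pairs at 0.41, 0.33, 0.25 and -0.81. The fitted values were 0.04 in RPFs (SE 0.19, 95% interval -0.40 to 0.47, adjusted p = 0.932 by edgeR) and 0.05 in total RNA (SE 0.21, 95% interval -0.42 to 0.52, adjusted p = 0.930 by edgeR). Without replicate 4 they were 0.30 (adjusted p = 0.0537) and 0.32 (adjusted p = 0.0121) by edgeR, so the call depends on this experiment. Without it, 33.4% of all genes passed in RPFs and 29.8% in total RNA.

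Slco2a1 (ENSMUSG00000032548.15, chromosome 9), the prostaglandin uptake transporter, stood at 71.3, 57.0, 116 and 150 CPM in KM_NTC RPFs and at 79.6, 53.9, 67.3 and 52.8 CPM in KM_4A2cr. The groups overlapped, with the widest gap in replicate 4. Its log2 fold change was -0.54 (SE 0.25, 95% interval -1.10 to 0.02, adjusted p = 0.226 by edgeR) in RPFs and -0.25 (SE 0.18, 95% interval -0.65 to 0.16, adjusted p = 0.525 by edgeR) in total RNA. Without replicate 4 these values were -0.23 (adjusted p = 0.288) and -0.081 (adjusted p = 0.758) by edgeR. Total RNA ran from 17.2 to 47.5 CPM in KM_NTC and from 15.7 to 32.1 CPM in KM_4A2cr.

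The degrading enzyme and the receptor were at or near the limit of detection. Hpgd (ENSMUSG00000031613.10, chromosome 8), 15-hydroxyprostaglandin dehydrogenase, had 2 RPF counts, both in KM_NTC replicate 1, and 1 total RNA count, in KM_4A2cr replicate 1. A count of 0, as in the other 7 libraries of each kind, allows up to 3 counts. Over the raw depths of all 8 libraries, 3 counts are between 0.312 and 0.665 CPM in RPFs. In total RNA they are between 0.322 and 0.561 CPM. Ptger4 (ENSMUSG00000039942.16, chromosome 15), the EP4 receptor, stood at 2.53, 1.99, 3.83 and 8.39 CPM in KM_NTC RPFs and at 3.02, 1.85, 3.23 and 8.62 CPM in KM_4A2cr. The RPF levels of the lines were nearly alike within each experiment, with replicate 4 high in both. Ptger4 total RNA pairs differed by -0.05, -1.14, 0.40 and 1.09 on the log2 scale, without a shared direction. Its log2 fold change was -0.01 in RPFs (SE 0.21, 95% interval -0.49 to 0.47, adjusted p = 0.998 by edgeR) and 0.17 in total RNA (SE 0.35, 95% interval -0.60 to 0.94, adjusted p = 0.845 by edgeR), the latter -0.27 without replicate 4. The intervals leave room for a sizeable difference at these counts, 116 and 95 in RPFs.

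Translational efficiency, the difference between the RPF and the total RNA fold change in 1 edgeR model, passed in 0 of 9 members, against 2.91% of 9989 genes, 1.87% higher and 1.04% lower. Of the 9, 1 had an unadjusted p under 0.05 by edgeR, beside 1410 of 9989 genes. DESeq2 called 0 of the 6 to which it gave an adjusted p (all but Ptgs1, Ptges2 and Ptger4). Ptgs2 differed by 0.05 (SE 0.11, 95% interval -0.18 to 0.27, adjusted p = 0.890 by edgeR). For Ptges the value was -0.08 (SE 0.09, 95% interval -0.27 to 0.12), and for Ptges2 it was -0.29 (SE 0.22, 95% interval -0.75 to 0.16). The member with an unadjusted p under 0.05 was Slco2a1, at -0.29 (SE 0.13, 95% interval -0.57 to -0.02, adjusted p = 0.317 by edgeR), and it stood at -0.13 without replicate 4. The Ptgs2 ratio of RPF CPM to total RNA CPM was 0.91, 0.97, 1.00 and 1.38 in KM_NTC and 0.97, 0.93, 0.84 and 1.84 in KM_4A2cr. It was highest in replicate 4 of both lines.

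A list of 93 further eicosanoid genes, of which 91 were found, places these genes in their pathway. In RPFs 43 were tested, and 11 were higher and 3 lower in KM_4A2cr, beside 6.60% and 3.72% of all genes. The median log2 fold change of the list was 0.09, against -0.01 over all genes. In total RNA 4 were higher and 1 lower of 40 tested, beside 4.35% and 1.78% of all genes, with a median of 0.13 against 0.01. In translational efficiency 0 of 39 passed by edgeR, with 2 at an unadjusted p under 0.05, beside 1410 of 9989 genes. DESeq2 called 0 of the 25 to which it gave an adjusted p. With scaling by library size only, which moved the median of all RPF fold changes to -0.14, the RPF calls were 6 higher and 7 lower, and the list median was -0.04. Of the 14 RPF calls, 14 were kept without replicate 4, 2 without replicate 1, 2 without replicate 2 and 1 without replicate 3, and all 14 kept their sign in these fits. Of the 5 total RNA calls, 5 were kept without replicate 4, 1 without replicate 1, 2 without replicate 2 and 1 without replicate 3. Without replicate 4 the list had 24 RPF calls and 20 total RNA calls, in a fit that called 33.4% of all genes in RPFs and 29.8% in total RNA.

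The group listed for phospholipases and arachidonate release held 5 of the higher RPF calls among 11 tested, with 0 lower. It is wider than the releasing enzymes and includes Plaa and Anxa1. Pla2g7, the secreted hydrolase of platelet-activating factor, stood at 15.9, 15.7, 25.2 and 13.4 CPM in KM_NTC RPFs and at 34.7, 34.2, 56.3 and 18.9 CPM in KM_4A2cr. It was higher in 4 of 4 pairs, by 1.01 (SE 0.15, adjusted p = 0.0114 by edgeR). Pla2g7 total RNA was higher in 3 of 4 pairs and did not pass (0.75, SE 0.24, adjusted p = 0.125 by edgeR). Pla2g12a, a secreted phospholipase A2, was higher by 0.76 in RPFs (SE 0.17, adjusted p = 0.0370 by edgeR) and by 0.87 in total RNA (SE 0.14, adjusted p = 0.00990 by edgeR). Abhd12, a lysophospholipid and endocannabinoid lipase on chromosome 2, was higher by 0.61 in RPFs (adjusted p = 0.0813 by edgeR) and by 0.64 in total RNA (adjusted p = 0.0517 by edgeR). Pnpla8, a calcium-independent phospholipase, was higher by 0.40 in RPFs (adjusted p = 0.0941 by edgeR) and differed by 0.14 in total RNA (adjusted p = 0.635 by edgeR). Its RPF call was kept in 3 of 11 alternatives and lost with DESeq2 (adjusted p = 0.124).

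The group listed for activating arachidonate or returning it to phospholipids was the other large one, with 5 of 13 higher and 0 lower in RPFs. It is wider than these steps, and its list includes Fads1, Fads2, Elovl2 and Elovl5. Lpcat3, which puts arachidonate into phosphatidylcholine, stood at 199, 142, 283 and 219 CPM in KM_NTC RPFs and at 376, 235, 397 and 244 CPM in KM_4A2cr. It was higher by 0.57 (SE 0.15, adjusted p = 0.0669 by edgeR) in 4 of 4 pairs. Acsl3, an acyl-CoA synthetase, was higher in RPFs by 0.48 (SE 0.13, adjusted p = 0.0771 by edgeR) in 4 of 4 pairs. Acsl3 total RNA did not pass (0.35, SE 0.15, adjusted p = 0.239 by edgeR). Lpcat2 was higher by 0.69 in RPFs (adjusted p = 0.0905 by edgeR) and by 0.74 in total RNA (adjusted p = 0.0965 by edgeR), each in 3 of 4 pairs.

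Outside prostaglandin E2, the leukotriene branch had the largest fold change of the list. Ltc4s, leukotriene C4 synthase, stood at 3.71, 2.18, 6.85 and 15.3 CPM in KM_NTC RPFs and at 10.5, 11.7, 13.9 and 42.8 CPM in KM_4A2cr. It was higher in 4 of 4 pairs, by 1.56 in RPFs (SE 0.22, adjusted p = 0.00846 by edgeR) and by 1.51 in total RNA (SE 0.28, adjusted p = 0.0181 by edgeR). Its RPF call was kept in 10 of 11 alternatives, all but the fit without the replicate block. Cysltr1, a receptor for leukotriene C4 and its products, was lower in total RNA by -0.85 (SE 0.25, adjusted p = 0.0964 by edgeR) and stood at -0.93 in RPFs (adjusted p = 0.139 by edgeR). Among the other terminal synthases, Akr1b3, an aldose reductase with prostaglandin F synthase activity, was lower in RPFs by -0.57 (SE 0.12, adjusted p = 0.0366 by edgeR) in 4 of 4 pairs. Gstm2, a glutathione transferase, was lower by -0.99 (SE 0.30, adjusted p = 0.0941 by edgeR) at between 0.56 and 4.25 CPM. The Gstm2 call was kept in 5 of 11 alternatives and lost with DESeq2 (adjusted p = 0.293). The transporter Slco3a1 stood at 9.69, 10.8, 28.1 and 14.1 CPM in KM_NTC RPFs and at 8.94, 7.38, 9.68 and 2.69 CPM in KM_4A2cr. These groups only just failed to overlap, at 9.69 against 9.68 CPM, and 2.13% of all genes did not overlap in RPFs. The Slco3a1 log2 fold change was -0.99 (SE 0.30, adjusted p = 0.0942 by edgeR), and -0.75 without replicate 3 (adjusted p = 0.447 by edgeR). For prostaglandin breakdown edgeR called 0 of 3 tested genes in RPFs, with 1 at an unadjusted p under 0.05 and 0 by DESeq2. For receptors and their partners it called 0 of 2, with 1 at an unadjusted p under 0.05 and 1 by DESeq2. Over all 10291 genes tested in RPFs, 2411 had an unadjusted p under 0.05 by edgeR, and DESeq2 called 958.

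**Figure D4:**
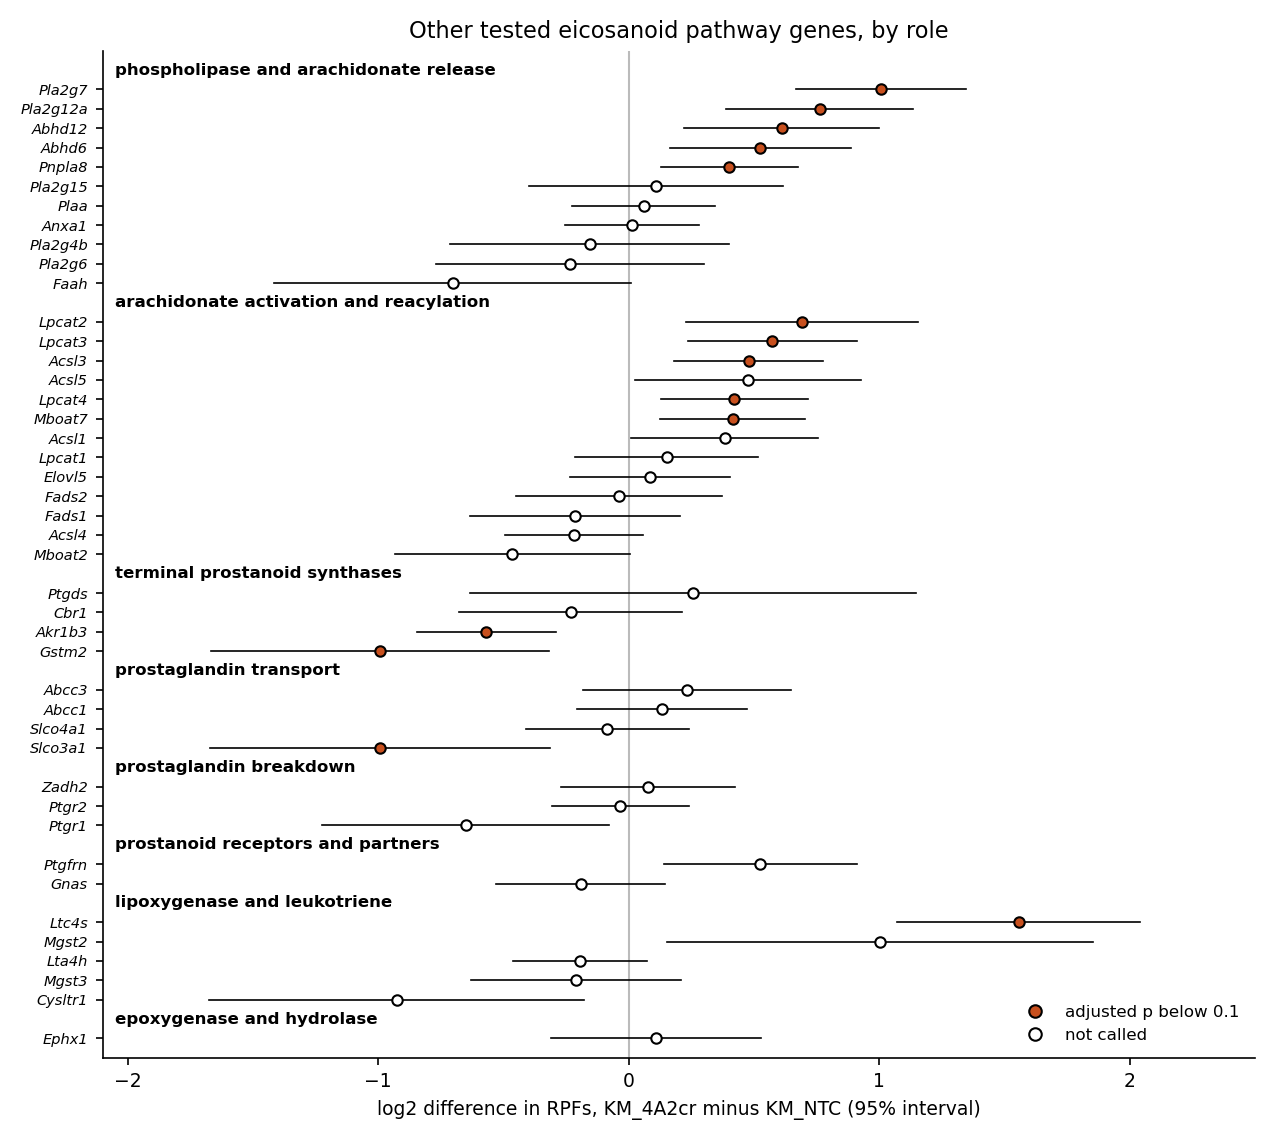
The x axis gives the RPF log2 difference KM_4A2cr minus KM_NTC with its 95% interval for the 43 tested genes of the eicosanoid list, grouped by role. The 14 filled circles, adjusted p below 0.1, lie to the right of 0 for the release and reacylation genes and Ltc4s and to the left for Akr1b3, Gstm2 and Slco3a1.

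A second list was of proteins listed for binding AU-rich elements, which Ptgs2 mRNA carries in its 3' untranslated region. These elements set its stability in other cells. The list is wider than such proteins and includes Celf1, Rc3h1 and Zc3h12a, known for binding other RNA elements. All 14 were tested, and edgeR called 0 in RPFs, 0 in total RNA and 0 in translational efficiency. At an unadjusted p under 0.05 by edgeR there were 1, 3 and 3 of 14. Over all genes these counts were 2411 of 10291, 1995 of 10880 and 1410 of 9989. DESeq2 called 0 of 14, 0 of 14 and 0 of the 11 to which it gave an adjusted p. Without replicate 4 edgeR called 4 in RPFs and 5 in total RNA, beside 33.4% and 29.8% of all genes. The list medians were -0.16 in RPFs and -0.09 in total RNA, and the RPF values ran from -0.37 to 0.06.

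The genes whose log2 CPM followed Ptgs2 most closely were found over 8 libraries, which share 4 experiments. In RPFs they were Cramp1l (Pearson r = 0.947), Tmem171 (0.942), Dennd1b (0.939), Washc3 (0.928) and Ccl27a (0.922). In total RNA they were Spry2 (r = 0.982), Mettl22 (0.937), Chchd1 (0.936), Ube2q1 (0.933) and Numb (0.926). Tmem171, Washc3, Spry2, Mettl22 and Chchd1 had r between 0.835 and 0.916 in the other kind of library, while Cramp1l stood at -0.581 there. No member of the pathway was near these values. In RPFs the members lay between -0.358 for Ptges3 and 0.423 for Slco2a1, and in total RNA between -0.494 for Ptges and 0.389 for Pla2g4a. These are descriptions over few experiments, with no test.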

How the data were processed

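KM_NTC and KM_4A2cr cells each gave 4 RPF and 4 cytoplasmic total RNA libraries. The deposited RPF tables hold raw counts for each transcript, which the authors had summed over the coding sequence after trimming (cutadapt 1.18), duplicate removal (UMI-tools 1.0.1) and alignment to 1 transcript per gene, the most abundant, in a filtered protein-coding GENCODE release. For total RNA the authors deposited RSEM 1.3.3 expected counts and TPM per isoform, made after Bowtie2 2.3.5.1 alignment. Tool versions are from the submitters' processing notes. Replicates were not pooled.

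Counts were summed per gene, and expected counts were rounded. Tests used R 4.3.3, edgeR 4.0.16 and limma 3.58.1: filterByExpr, TMM factors, quasi-likelihood fits on cell line with the replicate number as a block, and Benjamini-Hochberg adjustment over every gene tested, called at an adjusted p below 0.1. Intervals are 95% intervals from the fit. Log2 CPM used a prior count of 2. Translational efficiency was an interaction term over 16 libraries, each kind scaled on its own, so a change of all RPFs or of all RNA in a cell cannot be seen. The replicates were separate experiments. The replicate numbers pair the samples, since same-numbered libraries of the lines deviated together from their group means in all 4 pairs (correlation 0.575 to 0.782 in RPFs, 0.611 to 0.756 in total RNA). Each line was 1 culture source, so p-values measure the spread between experiments and not between independent knockout lines.

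The members, the gene lists and the motifs were chosen with earlier results of these data known. The text names the 10 members, Eif4a2 and called genes of the eicosanoid list. Of 15 of the latter called in RPFs or total RNA, it names the 12 with the smallest p. It also names any called gene of the list of RNA-binding proteins, and the 5 genes most like Ptgs2 in each kind of library. Symbols were matched through a gene name table, and chromosomes, neighbours and promoter windows come from RefSeq (GRCm38.p6), while the files use GENCODE vM27, another build. RPF levels per coding length were not computed. An item withheld from this text is not reported here. Alternatives were no replicate block, DESeq2 1.42.0, other scalings and filters, a threshold of 0.05, the RPF isoform only, and each replicate left out.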

Additional observations from a re-analysis of the deposited data

Results flagged for a closer look

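In a group of 4 libraries, 1 library was marked when its gap to the nearest other, divided by the range of the group, was above Dixon's 95% critical value. This was applied to 36 groups of member CPM values, and chance marks about 1 in 20. The mark fell on 1 value: Ptges2 RPFs in KM_4A2cr replicate 2, at 10.1 CPM, with a gap of 0.964 of the range. The other 3 KM_4A2cr libraries stood between 6.46 and 6.59 CPM, and replicate 2 of KM_NTC was also the highest of its line, at 13.5 CPM. Without replicate 2 the Ptges2 RPF difference was -0.73 on the log2 scale and did not pass (adjusted p = 0.232 by edgeR).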

How the results depend on the processing

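Without the replicate block edgeR called 0 genes in RPFs, 0 in total RNA and 0 in translational efficiency, so 0 members and 0 pathway genes, and the Ptgs2 translational efficiency was -0.090. Unadjusted p was under 0.05 for 365, 362 and 22 genes. Main calls were 1062, 667 and 291. At a threshold of 0.05 the calls were 438 in RPFs, 321 in total RNA and 76 in translational efficiency, with 0 and 0 members and 4 and 2 pathway genes. Scaling by library size only, which moved the all-gene median difference to -0.14 in RPFs and -0.15 in total RNA, gave 1619, 1130 and 132 calls, of which 482, 262 and 104 were higher. Members called in RPFs were then 4 (Ptges, Ptges2, Pla2g4a and Slco2a1), and Abcc4 stood at -0.094 in RPFs, -0.10 in total RNA and 0.011 in translational efficiency. Upper-quartile factors gave 8 pathway genes in RPFs, 53.5% of all RPF calls on the higher side against 63.9%, and -0.0047 for Abcc4 in RPFs. With RLE factors Ptger4 RPFs stood at 3.71e-05. No filter on low counts gave 1268 calls in total RNA and 475 in translational efficiency, with 2 members and 12 pathway genes in total RNA. DESeq2 gave 139 calls in translational efficiency and 1 member in RPFs. Counts of the RPF isoform alone gave 3 pathway genes in total RNA. By CPM rather than per length the median rank of Ptgs2 was 2.5.

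Leaving out each replicate moved the calls between 32 and 3469 in RPFs, 63 and 3260 in total RNA, and 10 and 673 in translational efficiency. The lowest counts came without replicate 3, 3 and 1 and the highest without replicate 4. Between 0 and 3 members were called in RPFs and between 0 and 3 in total RNA, and between 1 and 24 and between 1 and 20 pathway genes. Ptgs2 ran from -0.39 to 0.031 in total RNA and from -0.069 to 0.18 in translational efficiency, and its median rank from 50.0 to 86.0. Ptgs1 RPFs ran from -0.56 to 0.059, and Ptges translational efficiency from -0.12 to 0.018. Abcc4 ran from -0.083 to 0.30, -0.070 to 0.32 and -0.026 to 0.025 in RPFs, total RNA and translational efficiency, and Ptger4 from -0.097 to 0.10, -0.27 to 0.58 and -0.59 to 0.17. The causes were not tested. Replicates and depth limit these results: 4 experiments decide each call, and Ptger4, Ptges2 and Hpgd rest on few counts.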
